A study of Mus musculus with 15 samples.

Results

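Desmosome and cornified envelope linker genes were examined in RNA-seq of mouse mammary tumors and mammary glands. The 10 genes were taken by symbol and were Dsg2, Dsc2, Dsp, Pkp1, Pkp2, Pkp3, Jup, Perp, Evpl and Ppl. Each had a row among the 51826 genes of the tables. The 15 libraries came from 13 mice, all labelled FVB. The series design gives FVB/129 for the control mice and a like background for the Trim24COE mice, and the non-TRIM24 mice were either FVB or FVB/129. Strain may thus differ with group, and its part was not tested. The 6 Trim24COE tumors came from mice in which Cre, driven by the mouse mammary tumor virus (MMTV) promoter, removes a floxed stop in front of a FLAG-tagged mouse Trim24 transgene in the mammary epithelium. By their labels, 3 of these tumors were carcinosarcomas (mice 64, 567 and 897) and 3 were carcinomas (89, 273_5 and 3956). The control glands were undiseased mammary glands of 4 age-matched mice that carried MMTV-Cre without the transgene (133, 392, 417_3 and 517_3), so the controls shared the Cre driver with the tumors. The 3 non-TRIM24 tumors (219, FVB001 and FVB002) arose spontaneously, with genotype given as unknown and class as carcinoma. These 3 tumors and repeat libraries of 133 and 3956 were deposited as a set apart from all other libraries. The first of these sets is treated here as sequencing batch 2 and the other libraries as batch 1. The transgene sits at a single integration site. Ages of the tumor mice are given by the study and were not used here.

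Desmosomes are adhesive junctions that tie the keratin filaments of neighboring epithelial cells together. Desmogleins and desmocollins are the cadherins that reach across the gap, plakoglobin and the plakophilins bind their tails inside the cell, and desmoplakin links this plaque to keratin. Envoplakin and periplakin are related linker proteins that join desmosomes and keratin to the cornified envelope of stratified epithelia. In the mammary gland, desmosomes connect luminal and basal epithelial cells.

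Values are TPM, transcript abundances scaled to gene length and to 1 common total per library, and carry no read counts, so the depth behind a value was unknown. Trim24, the targeted gene, was at 10.6, 12.02 and 14.5 TPM in carcinosarcomas 64, 567 and 897 and at 24.1, 13.9 and 16.4 TPM in carcinomas 89, 273_5 and 3956. The control glands were at 14.5, 18.4, 22.4 and 15.9 TPM, so Trim24 TPM was not higher in the tumors labelled Trim24COE. The log2 difference of carcinosarcomas from control glands was -0.48 (SE 0.26, limma adjusted p = 0.214), and the non-TRIM24 tumors were at 5.34 to 10.04 TPM. The study itself reports more Trim24 RNA by quantitative PCR in Trim24COE tumors than in Cre-only glands. It also reports raised FLAG and TRIM24 protein in the tumors by immunohistochemistry. Whether reads of the transgene were counted in the Trim24 row is not given in the sources used here.

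Libraries also differed in marker RNA of other cell types. The summed TPM of 8 adipocyte markers was 24500 and 37300 in glands 133 and 392 against 1730 and 1920 in glands 417_3 and 517_3. It was 166 to 220 in the carcinosarcomas, 114 to 1270 in the carcinomas, and 166, 49800 and 25700 in 219, FVB001 and FVB002. The summed TPM of 8 luminal epithelial markers ran from 296 to 1410 in carcinosarcomas, 2590 to 6060 in carcinomas and 968 to 4860 in control glands. Of these, Epcam was 10.3, 36.4 and 2.73 TPM in carcinosarcomas 64, 567 and 897 and at least 153 TPM in every first library of a carcinoma or control gland. The 6 fibroblast and mesenchymal markers summed to 4290 to 8420 TPM in carcinosarcomas and 584 to 1220 TPM in control glands, and the 5 myeloid markers to 2210 to 5020 and 391 to 785 TPM. Of 9 skin keratinocyte markers, Krt1, Krt2, Flg, Dsg1a and Dsc1 were below 1 TPM in every library, whereas Krt10 was at 4.05 to 17.7 TPM throughout. Krtdap was at 878 TPM in carcinoma 89 and 29.3 TPM in tumor 219, Krt77 at 2.93 and 3.05 TPM in glands 417_3 and 517_3, and Lor at 1.85 TPM in carcinoma 273_5. Replicates were mice, and p-values measured the spread between mice.

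Promoter sequence was at hand for 2 of the 10 genes, Dsp and Jup, whose RNA was lowest in the carcinosarcomas. They are shown because only these 2 of the 10 genes had a sequence. Both genes encode parts of the link from the cadherins to keratin. The sequences are from RefSeq on GRCm38.p6, 5' to 3' on the strand of the gene, and were searched on both strands for CAGGTG, the E-box bound by SNAI and ZEB factors, and for AACCGGTT, the grainyhead-like motif. Capitals mark CAGGTG. The Dsp sequence is chr13:38151044-38151303 on the + strand, with 250 bases before the start and 10 transcribed bases. The Jup sequence is chr11:100397791-100398040 on the - strand and holds the 250 bases before the start.
Dsp: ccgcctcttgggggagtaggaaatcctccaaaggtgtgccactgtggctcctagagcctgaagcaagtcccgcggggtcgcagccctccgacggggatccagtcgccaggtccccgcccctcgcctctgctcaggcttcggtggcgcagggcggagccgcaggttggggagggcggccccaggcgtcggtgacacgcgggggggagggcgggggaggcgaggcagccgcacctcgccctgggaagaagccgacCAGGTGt
Jup: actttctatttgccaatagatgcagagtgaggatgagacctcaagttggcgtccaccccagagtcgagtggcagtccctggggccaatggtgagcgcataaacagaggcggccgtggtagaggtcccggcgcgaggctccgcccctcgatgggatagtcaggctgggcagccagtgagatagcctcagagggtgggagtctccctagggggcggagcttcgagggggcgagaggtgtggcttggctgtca
Dsp held CAGGTG from base 4 to base 9 of the transcript, and neither motif was found in the Jup sequence. Among all 32851 promoters in the table, 20.2% held CAGGTG and 0.146% held AACCGGTT within 300 bases, so the single match in Dsp is a description of the sequence only. GC content before the start was 72.4% for Dsp and 62.0% for Jup, and the median of all promoters was 52.4%.

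The carcinosarcomas had the lowest mean level of all 10 genes. For 5 genes (Dsg2, Dsp, Pkp3, Jup and Evpl) every carcinosarcoma lay below the first libraries of all 10 other mice, a pattern that 3.26% of 16544 genes showed. Dsg2, Dsp and Evpl were below 1 TPM in every carcinosarcoma and passed the filter only through other groups, so they add nothing to that count. Batch 2 holds 3 of those 10 mice. The highest mean belonged to the carcinomas for 5 genes, the control glands for 4 and the non-TRIM24 tumors for 1. Between the lowest and the next group the ranges overlapped for 4 of 10 genes, at the next step up for 9 and at the top step for 10, so the order of the 3 upper groups was within the spread of the mice for most genes. The plot of TPM by library shows these levels.

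**Figure D1:**
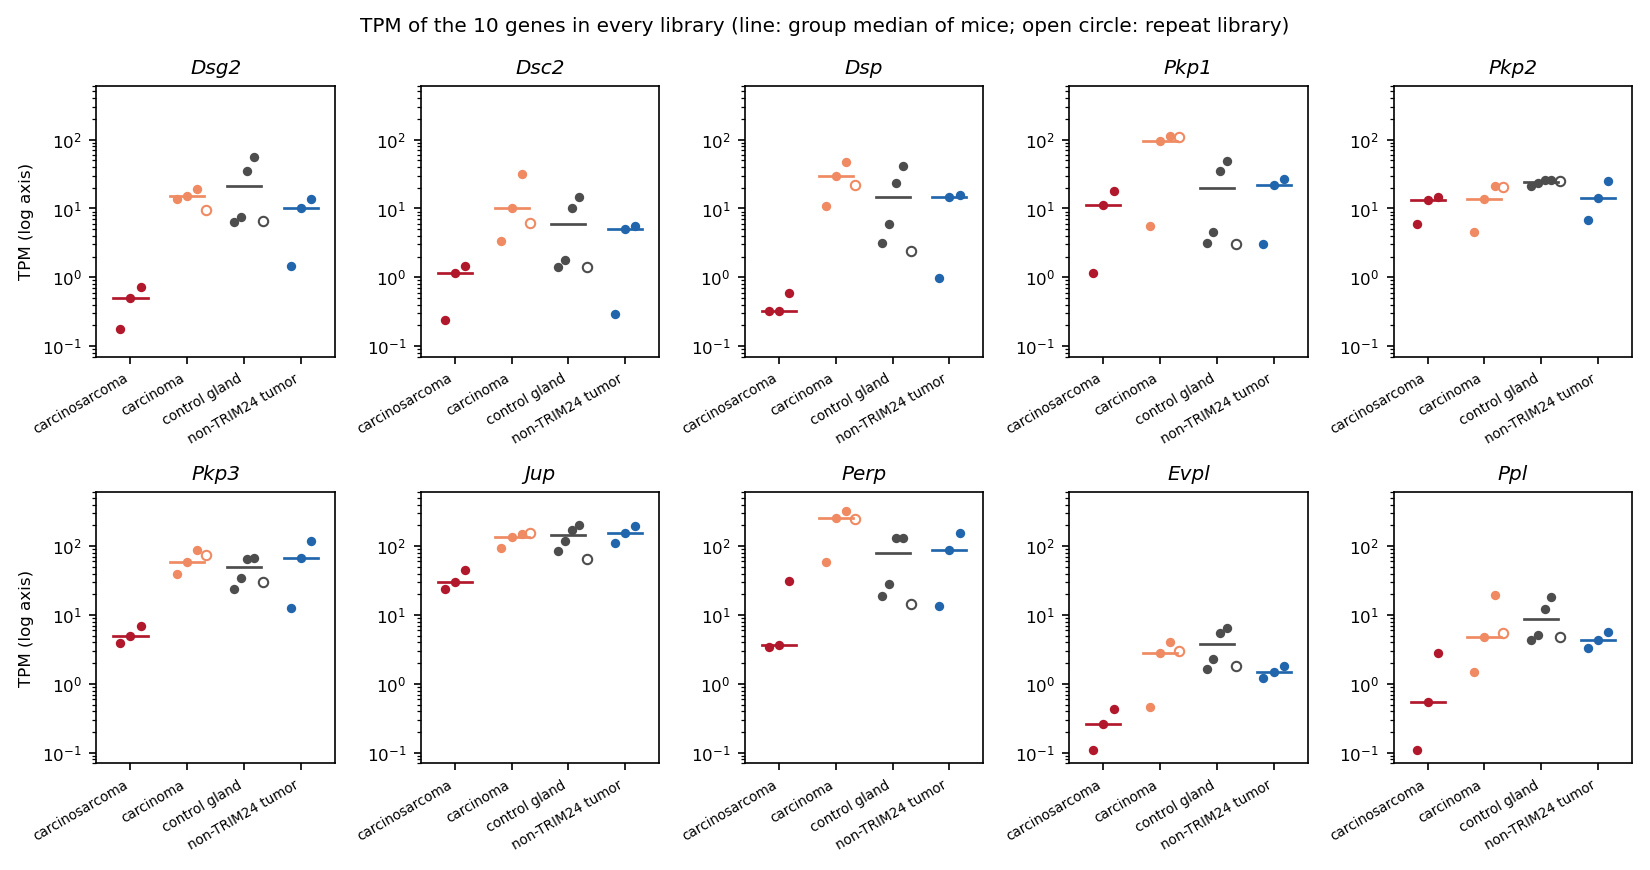
TPM of each gene (log axis) in every library by group, with filled points for mice, open circles for the repeat libraries of mice 133 and 3956 and a line at the median of the mice. The carcinosarcoma points of Dsg2, Dsp and Evpl all lie below 1 TPM, and those of Jup lie between 24.1 and 44.3 TPM, below all other groups.

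The first comparison asked how the genes differ between carcinosarcomas and control glands. In limma on log2(TPM + 1), 7 of the 10 genes were lower in carcinosarcomas at an adjusted p under 0.05 (Dsg2, Dsp, Pkp2, Pkp3, Jup, Evpl and Ppl) and 0 were higher, and 13.1% of all 15287 genes tested were called lower. For those 7 genes the groups did not overlap, which held for 21.6% of all genes tested. The median log2 difference of the 10 genes was -2.21, against -0.12 over all genes tested, and with libraries centred on their medians these were -2.10 and -0.0068. Dsg2, Dsp and Evpl were below 1 TPM in every carcinosarcoma and entered the test only through the control glands. Their calls and their lack of overlap thus add nothing to the counts. With no filter 3 genes were called, beside 896 of all 39123 genes called lower. With the mean log2(TPM + 1) of Krt8, Krt18 and Epcam as a covariate, 1 gene (Pkp3) remained called. In that fit 1376 of all 15287 genes were called lower. Without carcinosarcoma 64 or 567, 3 of the 10 genes were called, beside 742 of 16525 and 1107 of 16506 genes called lower. Lower levels of epithelial RNA accompanied the lower levels of these genes, and in whole tissue fewer epithelial cells and less RNA per cell cannot be told apart.

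Dsg2 (chromosome 18), the desmoglein of simple epithelia, was at 0.73, 0.50 and 0.18 TPM in carcinosarcomas 64, 567 and 897. The control glands were at 7.48, 6.36, 55.6 and 35.2 TPM and the carcinomas 89, 273_5 and 3956 at 18.9, 15.2 and 13.6 TPM. Every carcinosarcoma was below 1 TPM and every other mouse above it, 219, FVB001 and FVB002 being at 10.3, 1.48 and 13.5 TPM. The log2 difference of carcinosarcomas from control glands was -3.70 (SE 0.73, adjusted p = 0.011).

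Dsc2 (chromosome 18), the desmocollin that pairs with Dsg2, was at 0.24, 1.16 and 1.44 TPM in the carcinosarcomas. Glands 133 and 392 were at 1.77 and 1.41 TPM, glands 417_3 and 517_3 at 14.6 and 10.1 TPM, and the carcinomas at 31.9, 3.39 and 10.2 TPM. The ranges of carcinosarcomas and control glands overlapped, since gland 392 lay below carcinosarcoma 897. The log2 difference was -1.64 (SE 0.70) with an adjusted p of 0.128.

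Dsp, desmoplakin (chr13:38151294-38198577), was at 0.33, 0.60 and 0.32 TPM in the carcinosarcomas. The control glands were at 3.17, 6.02, 41.6 and 23.7 TPM and the carcinomas at 47.1, 10.7 and 29.5 TPM. All carcinosarcomas were below 1 TPM and did not overlap either group. The log2 difference from control glands was -3.23 (SE 0.76, adjusted p = 0.0207). That call was lost without any one of the 3 carcinosarcomas, and the adjusted p ran from 0.000397 to 0.463 over 16 refits.

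Jup, plakoglobin (chr11:100368958-100397763), which binds desmosomal and classical cadherins, stayed the most abundant of the 10 genes in carcinosarcomas 64 and 567. Its levels were 24.1, 44.3 and 29.9 TPM in the carcinosarcomas and 84.0, 120, 202 and 169 TPM in the control glands. Carcinomas were at 136, 94.3 and 151 TPM, so the carcinosarcomas were below both groups without overlap. The log2 difference from control glands was -2.07 (SE 0.36, adjusted p = 0.00688), and the call held without each single mouse.

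The plakophilins, which strengthen the plaque, did not behave alike. Pkp3 (chr7:141078218-141090510) was at 4.98, 6.91 and 3.92 TPM in the carcinosarcomas against 23.9, 34.1, 66.2 and 65.8 TPM in the control glands. It was at 86.5, 38.7 and 57.9 TPM in the carcinomas, and the log2 difference of carcinosarcomas from control glands was -2.85 (SE 0.41, adjusted p = 0.00351). The Pkp3 call held in all 16 refits, including the one with the epithelial covariate.

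Pkp2 (chr16:16213318-16272712), the plakophilin of simple epithelia and heart, had a far smaller range. It was at 5.88, 13.1 and 14.6 TPM in the carcinosarcomas and at 23.5, 25.8, 25.6 and 21.2 TPM in the control glands, the least variable gene among the glands with an SD of 0.125 on the log2 scale. Its log2 difference was -1.12 (SE 0.33, adjusted p = 0.0432), but the adjusted p was above 0.05 in 14 of 16 refits. Those 14 include leaving out each single mouse.

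Pkp1 (chr1:135871395-135919207), the plakophilin of stratified epithelia, was at 11.4, 17.8 and 1.15 TPM in the carcinosarcomas. The control glands were at 3.11, 4.55, 49.0 and 34.9 TPM, so 64 and 567 lay between the lower and the higher glands. Its log2 difference of -0.84 (SE 1.08, 95% interval -3.33 to 1.64, adjusted p = 0.61) could not be told from 0.

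Perp (chr10:18845020-18857073), a tetraspan membrane protein needed for desmosome stability and a target of p53 and p63, was at 3.42, 3.72 and 31.5 TPM in the carcinosarcomas. Glands were at 18.7, 28.4, 132 and 133 TPM, and carcinosarcoma 897 overlapped them. The log2 difference was -2.69 (SE 0.93, adjusted p = 0.0717).

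Of the envelope linkers, Evpl was at most 6.56 TPM in any library, and Ppl reached 19.3 TPM in carcinoma 89. Evpl, envoplakin (chr11:116220559-116238077), was at 0.43, 0.26 and 0.11 TPM in carcinosarcomas and 1.62, 2.27, 6.56 and 5.40 TPM in control glands, a log2 difference of -1.84 (SE 0.41, adjusted p = 0.0171). Ppl, periplakin (chr16:5086291-5132421), was at 0.11, 0.54 and 2.81 TPM against 4.40, 5.17, 18.1 and 12.2 TPM, a log2 difference of -2.36 (SE 0.58, adjusted p = 0.0246). Neither gene overlapped between the groups. Both calls were lost without carcinosarcoma 64 or 567, with no filter and with the epithelial covariate, Evpl also without 897 and Ppl also without gland 517_3 or without both 417_3 and 517_3. With those 2 glands left out, 5 of the 10 genes were called, beside 2770 of all 15815 genes called lower.

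The second comparison set carcinomas against control glands. None of the 10 genes was called, 0 had an unadjusted p under 0.05 in limma, and 3.5% of 15479 genes were called in either direction. Differences ran from -1.04 for Pkp2 (SE 0.45, 95% interval -2.09 to 0.0042, adjusted p = 0.234) to 1.60 for Perp (SE 0.87, 95% interval -0.40 to 3.6, adjusted p = 0.34). Pkp2 was the 1 gene whose groups did not overlap, lower in carcinomas at 13.6, 4.56 and 20.9 TPM, and 10.7% of all genes tested showed no overlap in that direction. Perp was at 260, 58.0 and 326 TPM in carcinomas 89, 273_5 and 3956, and Pkp1 at 96.1, 5.63 and 112 TPM, the widest SD of the carcinomas at 2.30 on the log2 scale. The 95% intervals left room for differences of several fold either way for Pkp1, from -1.31 to 4.42 on the log2 scale. The envelope linkers were at 4.00, 0.46 and 2.85 TPM for Evpl and at 19.3, 1.51 and 4.81 TPM for Ppl in the same tumors.

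Within the carcinomas, 273_5 held the lowest value of 9 of the 10 genes. Carcinoma 89 held the highest value of 6 and 3956 of 4. Carcinoma 89 also held the basal desmosomal cadherins Dsg3 and Dsc3 at 27.7 and 28.4 TPM, Krt5 at 961 TPM and the keratinocyte differentiation gene Krtdap at 878 TPM. In 3956, Dsg3, Dsc3 and Krt5 were at 0.16, 0.01 and 0.88 TPM although Pkp1 and Perp were as high as in 89. Dsg2 made up 39.3% of desmoglein TPM and Dsc2 52.9% of desmocollin TPM in carcinoma 89, and 98.7% and 99.6% in 3956.

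The control glands split by pairs. For 9 of the 10 genes, glands 417_3 and 517_3 were both above glands 133 and 392, and 49.3% of 15876 genes split this way. The ratio of the pair means ran from 1.82 for Jup to 11 for Pkp1. Pkp2 was the exception with a ratio of 0.95. The same ratio was 6.83 for Krt8, 2.92 for Krt18, 3.87 for Epcam and 4.58 for Cdh1, and the adipocyte marker sums given above ran the other way. The part of tissue make-up in the levels of the 10 genes was not tested.

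**Figure D2:**
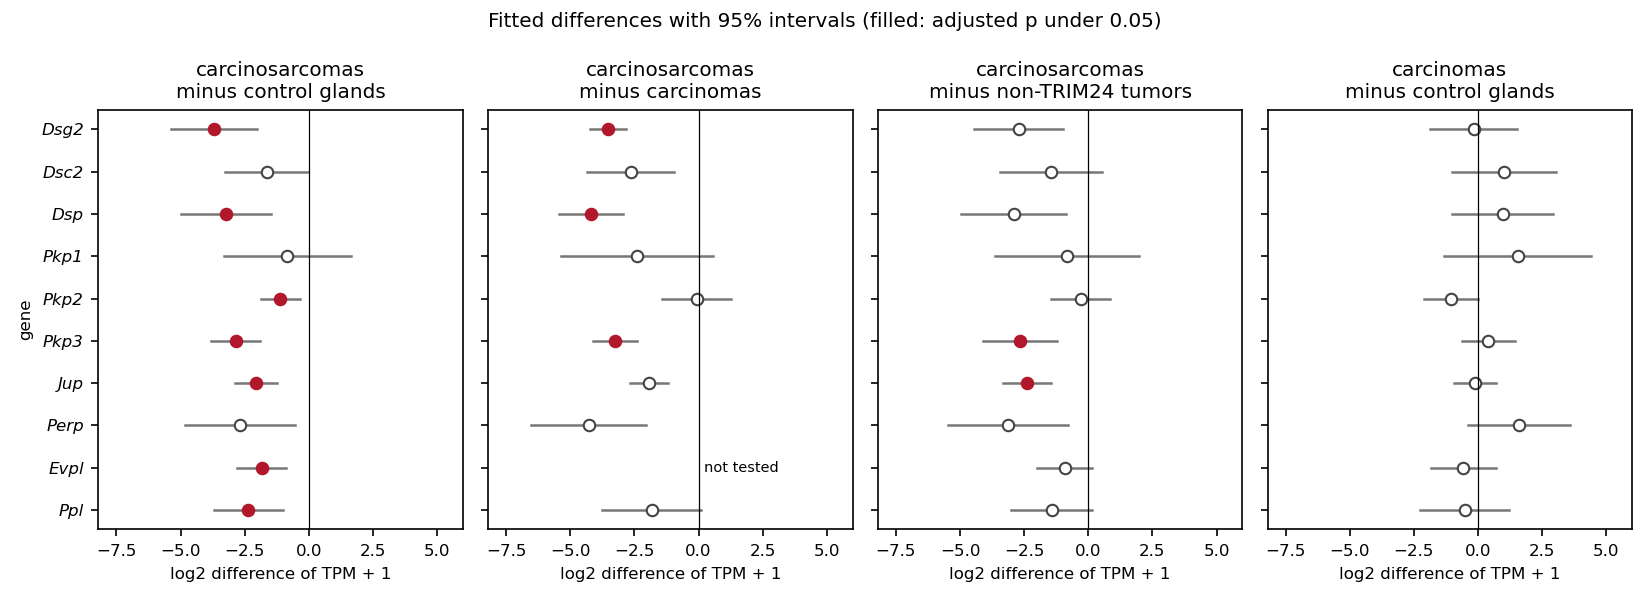
Log2 difference of each gene (x axis, log2(TPM + 1) scale) in the main comparisons, with bars for 95% intervals and filled points for an adjusted p under 0.05. The carcinosarcoma comparisons lie left of 0 for every gene tested, although Pkp2 against carcinomas turns to 0.04 with median-centred libraries, and all 10 intervals of carcinomas against control glands include 0.

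The third comparison set carcinosarcomas against carcinomas. Evpl was left out by the filter, and of the 9 genes tested, 3 were lower in carcinosarcomas (Dsg2, Dsp and Pkp3), while 0.585% of 14193 genes were called lower. Dsg2 and Dsp, below 1 TPM in every carcinosarcoma, entered the test only through the carcinomas, so their calls add nothing to the count. Groups did not overlap for 6 genes, Dsg2 and Dsp adding nothing here either, and 14.4% of all genes tested showed this. The median log2 difference was -2.65, against -0.10 over all genes tested. Dsg2 fell by 3.53 (SE 0.29, adjusted p = 0.0109), Dsp by 4.19 (SE 0.52, adjusted p = 0.0208) and Pkp3 by 3.26 (SE 0.36, adjusted p = 0.019) on the log2 scale. Perp had the largest difference, -4.29 (SE 0.94, adjusted p = 0.135), and Jup was at -1.94 (SE 0.31, adjusted p = 0.0574). Pkp2 was at -0.08 (SE 0.57, 95% interval -1.43 to 1.28) and at 0.04 with median-centred libraries. All 3 calls were lost without 64, without 897, without carcinoma 89, with no filter and with the epithelial covariate, and the Dsp call also without 567. Over 12 refits the differences stayed between -4.94 and -3.38 for Dsg2, -5.62 and -3.55 for Dsp and -3.54 and -2.98 for Pkp3. With the covariate they were -4.50, -3.55 and -3.26, and that fit, the one with no filter and those without 64 or 89 called 0 genes of all tested in limma, with 938 to 2871 genes at an unadjusted p under 0.05. The median of the 9 genes was -0.79 with the covariate. In a fit on all 10 first libraries of batch 1, Dsg2 (adjusted p = 0.0568) and Dsp (adjusted p = 0.0538) were not called.

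For all 6 Trim24COE tumors against control glands 0 of 10 genes were called in limma, with 2 unadjusted p under 0.05 and 17.1% of 15196 genes called in either direction. Log2 differences ran from -1.94 to 0.36, and Pkp2 was at -1.08 (SE 0.37, adjusted p = 0.0688).

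The non-TRIM24 tumors were in batch 2, so the fits with them used all 15 libraries with a batch term and the mouse as a block. In these tumors FVB002 lay between 219 and FVB001 for 96.2% of 1761 genes in which the outer pair differed by at least 2 on the log2 scale, with a median position of 0.563 of the way from FVB001 to 219. That was the highest share of 858 trios of first libraries, the next being 93.8%, and it was looked at after the values were seen. Among the 10 genes, 8 lay between, Dsg2 and Ppl being outside. Whether the 3 libraries are independent was not tested. Tumor FVB001, with the highest adipocyte marker sum, held the lowest value of the 3 tumors for 9 of the 10 genes. Dsp was at 15.8, 0.99 and 14.9 TPM in 219, FVB001 and FVB002. Perp was at 153, 13.7 and 86.7 TPM and Pkp1 at 27.0, 3.02 and 22.3 TPM, whereas Pkp2 was highest in FVB001, at 25.3 TPM against 6.77 and 14.2. Against control glands 0 of 10 genes were called (0 with an unadjusted p under 0.05, 0.709% of 16775 genes called in either direction), with differences from -1.02 to 0.45. Carcinomas against non-TRIM24 tumors also gave 0 of 10 (0 unadjusted, 0.0298% of genes called), with differences from -0.41 to 1.57.

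Carcinosarcomas were lower than non-TRIM24 tumors for 2 genes. Jup was at 197, 112 and 155 TPM in 219, FVB001 and FVB002 and differed by -2.39 (SE 0.43, adjusted p = 0.0146). Pkp3 was at 120, 12.7 and 67.6 TPM and differed by -2.67 (SE 0.67, adjusted p = 0.0407). Of all genes tested 1.52% were called lower, and groups did not overlap for 6 of the 10 genes against 13% of all genes. Dsg2, Dsp and Evpl, below 1 TPM in every carcinosarcoma, entered only through other groups and add nothing to the count without overlap. The Jup call was lost without 64 and without FVB002, and the Pkp3 call without any one of 5 of the 6 mice of the 2 groups. With first libraries only and no batch term, limma called both, Jup at -2.21 (adjusted p = 0.0106) and Pkp3 at -2.98 (adjusted p = 0.0352). That fit cannot separate batch from group. In the fit of all 15 libraries both calls depended on the mouse block. With libraries of a mouse as separate samples the differences were -2.61 for Jup (adjusted p = 0.0714) and -3.08 for Pkp3 (adjusted p = 0.142).

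Setting each gene against the mean TPM of Krt8 and Krt18 gave levels per unit of simple epithelial keratin. Dsp was 0.275, 0.313 and 0.0465 TPM per 100 TPM keratin in carcinosarcomas 64, 567 and 897, against 1.54, 1.62, 3.56 and 1.91 in the control glands and 11.2, 1.21 and 1.12 in carcinomas 89, 273_5 and 3956. Every carcinosarcoma was below every control gland for Dsg2, Dsp, Pkp3, Perp, Ppl and Evpl, which 4.57% of 15287 genes set against the same keratins showed. Every carcinosarcoma was below every carcinoma for 2 genes (Dsp and Perp), which 0.38% of 14193 genes showed. Dsg2, Dsp and Evpl were below 1 TPM in every carcinosarcoma and passed the filter only through the other group, so they add nothing here. Jup overlapped, at 20.1, 23.1 and 4.34 against 40.8, 32.1, 17.3 and 13.6 in the glands. With 3 against 4 mice the smallest two-sided exact p is 0.0571 and with 3 against 3 it is 0.1, so these ratios are given without a test.

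**Figure D3:**
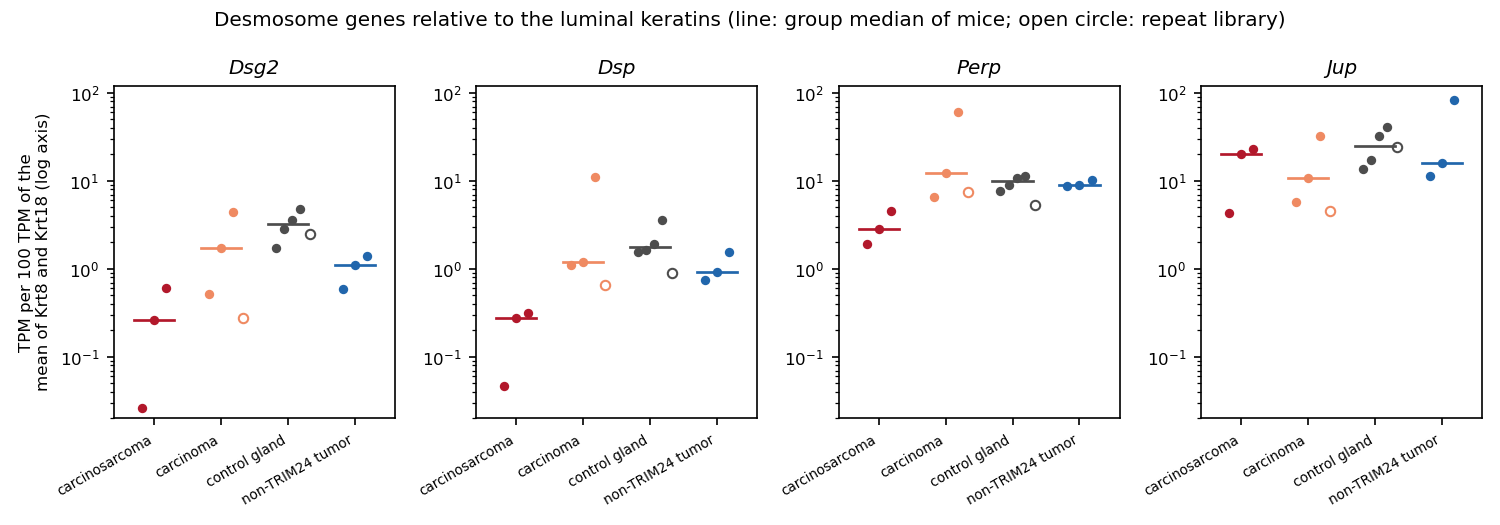
TPM of each gene shown per 100 TPM of the mean of Krt8 and Krt18 (log axis) in every mouse by group. For Dsp the carcinosarcomas lie at 0.0465 to 0.313, below all carcinomas and control glands, whereas for Jup they overlap both.

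Partner shares also differed. Pkp3 took 8.51 to 9.33% of the TPM of the 4 plakophilins in carcinosarcomas, 27.9 to 31.7% in control glands and 26.6 to 50.6% in carcinomas. Pkp4, a plakophilin found at adherens junctions as well, took 49.2 to 58.3% in carcinosarcomas and 40.7 to 44.6% in control glands, and its own log2 difference was -0.98 (SE 0.37, adjusted p = 0.0945). Jup took 3.99 to 5.76% of the sum of Jup and Ctnnb1 in carcinosarcomas and 20 to 27.0% in control glands. Ctnnb1, beta-catenin, the closest relative of Jup, differed by 0.36 (SE 0.28, adjusted p = 0.389). No test was run on the shares.

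**Figure D4:**
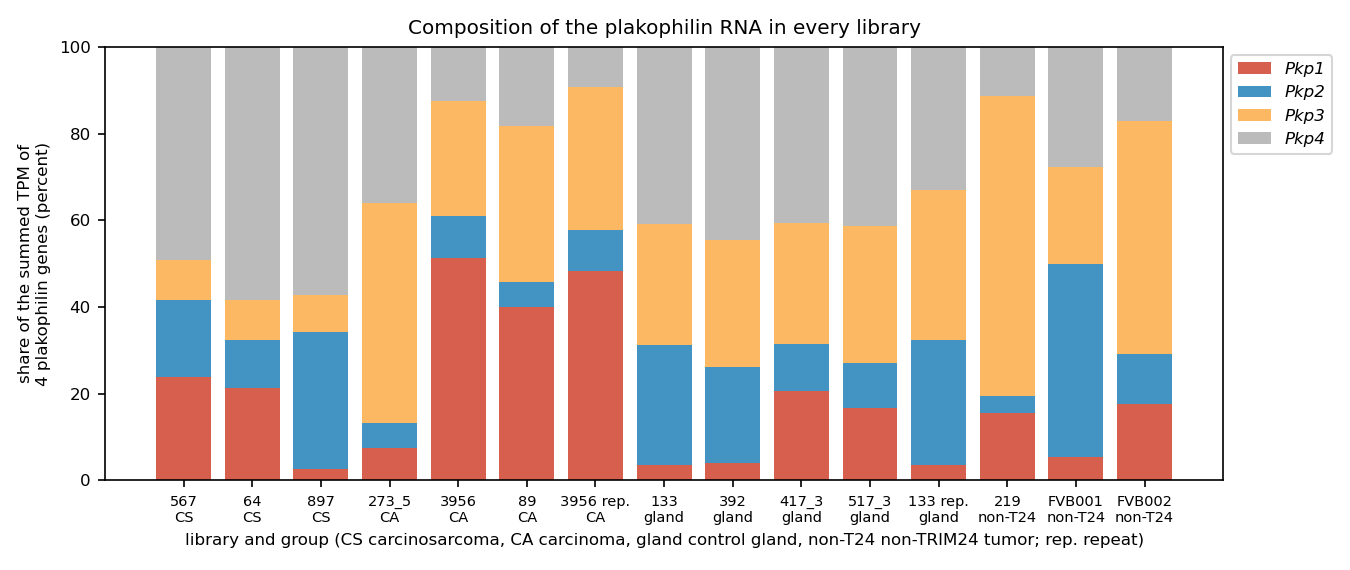
Share of the summed TPM of Pkp1, Pkp2, Pkp3 and Pkp4 in each library, in percent, from 0 to 100. Pkp3 is the smallest or next to smallest share in each carcinosarcoma, at 8.51 to 9.33%.

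Other genes of the pathway and its regulators were taken from lists chosen with earlier results of these data known. Of 20 cornified envelope genes, 6 passed the filter in carcinosarcomas against control glands. Cstb, a protease inhibitor, was higher (1.23, SE 0.29, adjusted p = 0.0209) and Sbsn lower (-1.49, SE 0.41, adjusted p = 0.0355), and 4 were not called. Of 8 other desmosome genes only Pkp4 passed the filter. Among 6 adherens junction genes 1 was lower, E-cadherin Cdh1 (-3.84, SE 0.87, adjusted p = 0.0177), and among 6 plakin and hemidesmosome genes tested 1 was lower, Col17a1 (-2.61, SE 0.74, adjusted p = 0.0375). Keratins that anchor desmosomes were lower for 3 of 7 tested, Krt5 (-6.20), Krt19 (-3.37) and Krt7 (-2.85). Of the epithelial and EMT transcription factors reported here, Grhl1 (-4.09), Grhl2 (-3.15) and Trp63 (-2.40) were lower and Snai1 (2.83), a repressor of epithelial cadherins, was higher. The EMT factors Snai2 (-0.22, adjusted p = 0.702), Zeb1 (0.93, adjusted p = 0.0699) and Zeb2 (0.56, adjusted p = 0.605) were not called. Luminal markers were lower for 6 of 8 and basal markers for 4 of 6, whereas fibroblast markers were higher for 4 of 6 and myeloid markers for 3 of 5. Adipocyte markers were lower for 1 of 8, and no endothelial, lymphoid or skeletal muscle marker was called. Of all 15287 genes tested, 13.1% were called lower and 9.83% higher. The cornified envelope, adherens junction and plakin lists, each with 1 gene lower, were near that share.

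The mean standardised level of the 10 genes over the 10 first libraries of batch 1 was correlated with each of 16050 genes as a description. Dsp was closest of the 10 genes (r = 0.970), then Jup (0.951) and Pkp3 (0.946), while Pkp1 (0.722) and Pkp2 (0.550) were least alike. Each of the 10 genes is part of the mean it is set against, which raises its r. The values of other genes have no such part. The 5 other genes most alike were Nr1h2 (0.986), Serpinb5 (0.985), Atp2c2 (0.979), Proser2 (0.977) and D430042O09Rik (0.975). Epcam was at 0.908, Trim24 at 0.853 and Ctnnb1 at -0.08. The libraries share tissue make-up and group, so these values have no p.

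The repeat libraries of 133 and 3956 gave the size of the error between libraries of a mouse. Across the 10 genes the log2 difference ran from -0.37 to 0.32 for 133 and from -0.65 to 0.34 for 3956, smaller than each called difference. The median absolute difference over all genes was 0.275 and 0.253.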

How the data were processed

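Bulk RNA of 15 libraries from 13 mice was analysed. The deposited tables hold TPM per gene, which the authors made from trimmed reads with RSEM and the STAR aligner on GRCm38, one column per library. The submitters' processing notes name further tools without a role. Columns sum to 999999 to 1000001, and read counts and depth were not used here, so no count test was run and intervals for counting error were not computed. Gene positions are from the GENCODE M21 annotation.

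Values were tested as log2(TPM + 1) with limma 3.58.1 in R 4.3.3 (moderated variance with a trend, two-sided, Benjamini-Hochberg over all genes tested, threshold 0.05). Genes entered a test if the number of libraries at 1 TPM or more was at least the number of mice in the smaller group. Fold changes on this scale understate low genes. The first library of each mouse was used within batch 1. For the non-TRIM24 tumors the fit took all 15 libraries, a batch term and the mouse as a block (within-mouse correlation 0.951). In simulated data with 200 planted changes among 15345 genes, 92.0% were recovered for carcinosarcomas against control glands, with 4.17% of calls false. For carcinosarcomas against carcinomas (14449 genes) these were 94.5% and 5.97%, and for carcinomas against non-TRIM24 tumors (15844 genes) 91.5% and 4.19%. The simulated spread was reduced from that of the data. Only large changes were planted, in genes above the filter level in every library compared. Dsg2, Dsp and Evpl were below that level in every carcinosarcoma. These shares therefore do not give the power for the genes examined.

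The 10 genes and all gene lists were chosen with earlier results of these data known, so nothing here is adjusted over a list alone. All 10 are named. From each list, called genes are named by smallest adjusted p, with defining markers, Trim24, Ctnnb1 and the 5 genes most like the mean pattern. Alternatives were a pseudocount of 0.1, no filter, median-centred libraries, epithelial and adipocyte covariates, other sets of libraries and leaving out each mouse. Leaving out pairs of control glands was added after seeing the data. Group labels are the submitters', and the study's pathologists did not class tumors 89, 567 and 3956 alike. Part of the transcription factor list is not reported here.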

Additional observations from a re-analysis of the deposited data

Results flagged for a closer look

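Dsg2, Dsp and Pkp3 were noted because carcinosarcomas and carcinomas, both from mice labelled Trim24COE, differed under a direct test in limma. The log2 difference of carcinosarcomas from carcinomas was -3.53 for Dsg2, -4.19 for Dsp and -3.26 for Pkp3. Every carcinosarcoma lay below every carcinoma for each, which 14.4% of 14193 genes showed. Since the genes were picked by the test on these values, that separation adds nothing to the test. Against the same control glands, the carcinosarcomas were lower by adjusted p for these 3 genes and the carcinomas were not. With the mean log2(TPM + 1) of Krt8, Krt18 and Epcam as a covariate the differences were -4.50, -3.55 and -3.26 with 0 of all 14193 genes called. Dsg2 and Dsp were below 1 TPM in every carcinosarcoma and entered the test only through the carcinomas, and with no filter none of the 3 was called (adjusted p = 0.079 for Dsg2, 0.145 for Dsp and 0.0995 for Pkp3). By a rule on the gap of a single gland from the other 3, no control gland stood apart in any of the 10 genes. A split by pairs, given above for most of these genes, is not what that rule looks for.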

How the results depend on the processing

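The tables hold TPM, so depth does not set a limit that can be computed, and 3 or 4 mice a group limit precision. No paired analysis was possible because replicate names are mouse IDs that no groups share. Called differences changed sign in 0 of 172 refits, and differences that were not called in 87 of 845, among them 15 of 190 for all Trim24COE tumors, 32 of 160 for non-TRIM24 tumors against control glands and 9 of 120 for carcinomas against non-TRIM24 tumors. Of the 10 genes, those called in carcinosarcomas against control glands numbered 3 with no filter, 1 with the epithelial covariate and 3 to 7 with a mouse left out (3 without 64 or 567). Against carcinomas they numbered 0 with no filter, 0 with the epithelial covariate and 0 to 3 with a mouse left out (0 without 64, 89 or 897), while the differences of the 3 called genes stayed at -2.98 or further from 0. The fits against carcinomas with no filter, with the covariate and without 64 or 89 called no gene of all tested. That without 897 called 11 of 14984 genes lower. Against control glands, genes called lower were 896 of 39123 with no filter and 1376 of 15287 with the covariate. They were 742 of 16525 without 64 and 1107 of 16506 without 567. For all Trim24COE tumors leaving out a mouse gave 0 to 2 of the 10 genes (2 without 89, 1 without 3956). Of all genes, 1688 of 14843 were called lower without 89 and 1187 of 15013 without 3956. For non-TRIM24 tumors against control glands 1 of the 10 genes was called with glands 133 and 392 left out, beside 2710 of 17118 genes called lower. Carcinosarcomas against non-TRIM24 tumors gave 4 with a pseudocount of 0.1, 1 with no filter, 0 with libraries of a mouse as separate samples and 4 with no batch term. A mouse left out gave 0 to 4 (0 without 64 or FVB002, 1 without 567, 897 or 219, 4 without FVB001). Genes called lower were 362 of 16775 with that pseudocount, 52 of 40019 with no filter and 872 of 14120 with no batch term. They were 56 of 17819 without 567, 82 of 17819 without 897, 426 of 17808 without 219 and 300 of 17820 without FVB001. With no filter more genes enter the adjustment. The cause of the other changes was not tested.

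Signs turned for these log2 differences, none of them called. In carcinosarcomas against control glands the epithelial covariate gave Dsc2 0.82, Pkp1 1.82, Perp 0.24, Pkp4 0.099, Snai2 0.29 and Zeb2 -1.66, the adipocyte covariate gave Ctnnb1 -0.027, leaving out glands 417_3 and 517_3 gave Pkp1 0.73, Snai2 0.086 and Zeb2 -0.64, and with a mouse left out Pkp1 ran from -1.46 (without 567) to 0.10 (without 897) and Snai2 from -0.43 (without 133) to 0.094 (without 897). In carcinomas against control glands the adipocyte covariate gave Dsp -0.0064 and Pkp3 -0.0067. Without glands 133 and 392, Dsc2 was -0.16, Dsp -0.33, Pkp1 -0.021 and Pkp3 -0.18, and without 417_3 and 517_3, Dsg2 was 1.09, Jup 0.31, Evpl 0.055 and Ppl 0.21. With a mouse left out, Jup ran from -0.35 (133) to 0.077 (273_5), Ppl from -1.33 (89) to 0.18 (273_5) and Dsg2 from -0.63 (392) to 0.36 (417_3). In carcinosarcomas against carcinomas Pkp2 was 0.036 with median-centred libraries, 3.24 with the epithelial covariate and from -0.64 (without 273_5) to 0.35 (without 3956) with a mouse left out. Against non-TRIM24 tumors the epithelial covariate gave Dsc2 0.041 and Pkp1 1.12, separate libraries gave Pkp2 0.086, and with a mouse left out Pkp2 ran from -0.75 (219) to 0.13 (FVB001) and Pkp1 from -1.72 (FVB001) to 0.11 (897).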

Other observations

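Cdsn, corneodesmosin, a cornified layer desmosome protein, was at 27.2 and 24.5 TPM in control glands 133 and 392 and at 0.37 and 0.06 TPM in glands 417_3 and 517_3, the reverse of the order of 9 of the 10 genes. The repeat library of 133 gave 29.1 TPM. In the tumors Cdsn was at most 3.63 TPM, in carcinoma 89. That tumor also held the envelope genes Sprr1a at 219 TPM, Cnfn at 61.9 TPM and Ivl at 16.7 TPM, where Ivl was at most 2.77 TPM in every other library. Krt6a, a keratin of stressed epithelium, was at 707 TPM in 89, 127 TPM in 273_5 and 0.39 TPM in 3956, and at 503, 32.2 and 320 TPM in 219, FVB001 and FVB002. These genes were picked out after their values were seen and carry no test.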
